A study of Homo sapiens with 12 samples.

Results

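The difference between the responses of 2 cell lines to interferon beta (IFNB) was measured over all 12 of the 12 libraries of the series. Both lines were HT1080 cells, an established human fibrosarcoma line. All cells stably carried dCas9, a Cas9 that binds DNA without cutting it, used for CRISPR interference, together with a guide RNA, and all were kept under blasticidin and puromycin. The control line carried a guide against GFP, and the other a guide against an LTR8B element, a retroviral repeat in the first intron of SP140. The GFP line gave 2 untreated libraries and 2 from cells given 10 U/mL IFNB for 4 h; the LTR8B line gave 4 untreated libraries and 4 treated at that same dose and time. The labels do not say whether a line is 1 clone or a pool and do not tell if replicates came from separate cultures; the p-values therefore cover only the variation among these libraries, which may be technical. The response of a line is its log2 fold change with IFNB. The difference is the LTR8B response minus the GFP response, so a negative value means a smaller response in LTR8B cells.

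Type I interferon binds the IFNAR1 and IFNAR2 receptor, whose kinases JAK1 and TYK2 phosphorylate STAT transcription factors such as STAT2. With IRF9 these form the ISGF3 complex, which binds interferon-stimulated response elements near antiviral genes and raises their transcription within hours. SP140 and its relatives SP100, SP110 and SP140L are chromatin proteins, several of them found in nuclear bodies and themselves interferon-responsive. The comparison asks how closely the response of cells with repressed SP140 matches that of control cells, gene by gene.

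The deposited raw counts summed to between 12404270 and 28801579 per library, the lowest being LTR8B IFNB replicate 3 and the highest LTR8B untreated replicate 3. SP140 (chr2:230203110-230313215, plus strand, hg38 with GENCODE 29 models) stood at 30.8 and 29.7 CPM (counts scaled to a library of 1e+06) in the untreated GFP libraries and 32.0 and 29.8 with IFNB. In the untreated LTR8B libraries it stood at 1.84, 0.514, 1.51 and 1.13 CPM, and with IFNB at 1.48, 1.07, 1.46 and 0.900 CPM. The lines did not overlap in either treatment, with LTR8B cells lower, as their knockdown label says. Of 11 mesenchymal markers 9 had a mean of at least 1 CPM, with the list summing to between 3969.8 and 4677 CPM over the 12 libraries. None of 9 haematopoietic markers reached 1 CPM, and that list summed to between 2.44 and 3.33 CPM. Of 9 epithelial markers 2 did, the keratins KRT8 (264 CPM) and KRT18 (140 CPM), in a list summing to between 358 and 445 CPM. Of 6 neural markers 2 did, in a list summing to between 101 and 151 CPM, of which the tubulin TUBB3 made up 118 CPM on average; of 6 endothelial markers 2 did, in a list summing to between 7.68 and 13.51 CPM. In bulk RNA, fewer responding cells and less RNA per cell cannot be told apart.

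No gene was called for a different response. Of 16393 genes tested with edgeR's quasi-likelihood test, 0 (0%) had an adjusted p under 0.05, and the smallest adjusted p was 0.996. At an unadjusted p under 0.05 there were 489 genes (2.98%), of which 340 had a smaller and 140 a larger LTR8B estimate, and 9 had no estimate because a whole group was at 0 counts. If no gene differed and p-values were evenly spread, 5% of genes would fall there. DESeq2 called 0 genes, with 372 at an unadjusted p under 0.05, and limma-voom called 0, with 501. With 1 library left out, the number at an unadjusted p under 0.05 ran from 229 without GFP IFNB replicate 2 to 1346 without GFP IFNB replicate 1, and was 1130 without LTR8B untreated replicate 2 and 757 without LTR8B IFNB replicate 4. A missed threshold does not show that 2 responses are equal, so equality was tested on its own: for each gene, 2 one-sided tests asked whether the responses lay within a stated fold of each other, with p-values adjusted over all tested genes.

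By that test 9695 of the 16393 genes (59.1%) were equal within 1.5-fold and 12497 (76.2%) within 2-fold, while 0 (0%) passed at a limit of 25%, where the larger fold exceeds the smaller by at most 25%. The 25% count depended on the model and its test. It was 631 with DESeq2, tested on the normal distribution, and 3478 (21.2%) with a term for each replicate number in edgeR. Before adjustment, 5028 genes passed the 25% limit. The median difference over all tested genes was -0.0033 on the log2 scale. The median margin of error, the distance from an estimate to either end of its 95% interval, was 0.36 in log2 units, or 1.28-fold. The GFP arm, with 2 libraries per treatment, supplied a median of 66.2% of the variance of the difference; arms of 2 and 4 libraries per treatment with equal spread would give 66.7%.

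**Figure D1:**
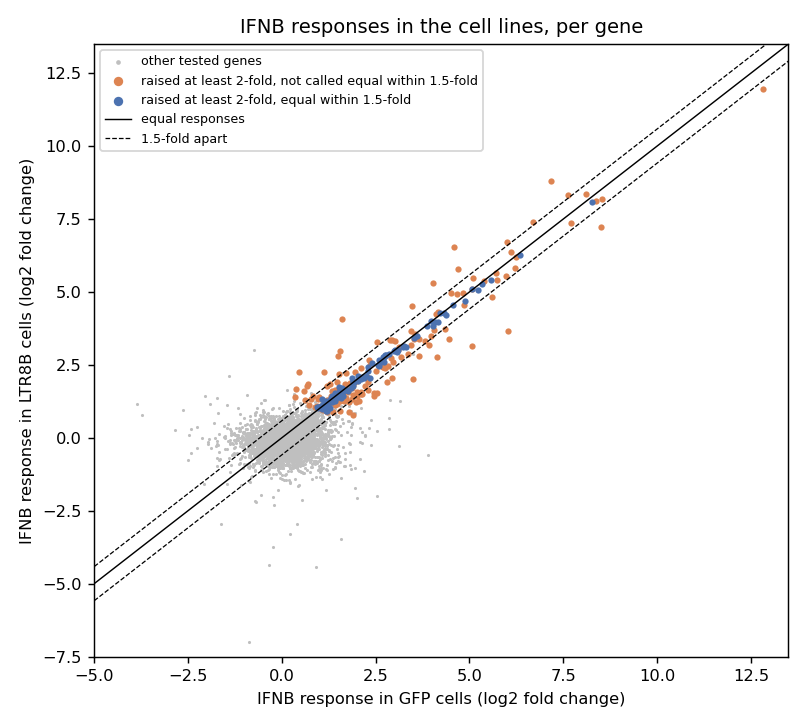
Each point is a gene, placed by its IFNB response in GFP cells (x axis, log2 fold change) and in LTR8B cells (y axis, log2 fold change); the solid line marks equal responses and the dashed lines responses 1.5-fold apart. Genes raised at least 2-fold and called equal within 1.5-fold are blue (105 of 268 genes), those raised and not called equal are orange, and other tested genes are grey; genes with a group at 0 counts have no point.

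Expression level set how tightly equality could be stated. Among the 2660 genes under a mean of 1 CPM the median margin of error was 1.41 (2.65-fold), and 0 were called equal within 1.5-fold. The 1819 genes from 1 to 3 CPM had a median margin of 0.84 (1.79-fold) and 11 genes called equal (0.605%). From 3 to 10 CPM the margin was 0.50 (1.41-fold) and 859 of 2238 genes were equal (38.4%). The largest step in that share came between this range and the next: from 10 to 30 CPM the margin was 0.33 (1.26-fold) and 2691 of 3191 genes were equal (84.3%). From 30 to 100 CPM 3937 of 4187 genes were equal (94.0%), at a margin of 0.26 (1.19-fold). Over 100 CPM 2197 of 2298 were equal (95.6%), at a margin of 0.22 (1.17-fold).

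The 2-fold limit was reached earlier in this order. It held for 54 genes under 1 CPM (2.03%), 833 from 1 to 3 CPM (45.8%), 2024 from 3 to 10 CPM (90.4%) and 3137 from 10 to 30 CPM (98.3%). Counting error alone accounted for a median of 64.3% of the variance of the difference under 1 CPM and 7.30% over 100 CPM, with spread between libraries beyond counting making up the rest. A gene alone in passing adjustment would have needed a median difference of 23.8-fold under 1 CPM, 3.08-fold from 3 to 10 CPM and 1.64-fold over 100 CPM. Median differences moved from -0.16 under 1 CPM (1546 genes smaller, 1067 larger) through -0.03 at 3 to 10 CPM to 0.02 over 100 CPM (990 smaller, 1308 larger). The margins above are for single genes and do not bound these medians. The order of the medians depended on single libraries, as checked among genes within 0.5 of no response. Without GFP IFNB replicate 2, the median under 1 CPM went from -0.15 to 0.0013 and that over 100 CPM from 0.02 to 0.00043. Without GFP IFNB replicate 1 they were -0.23 and 0.06, and without LTR8B untreated replicate 3 they were -0.06 and 0.007. With 2 treated GFP libraries, which of them stands apart cannot be told.

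**Figure D2:**
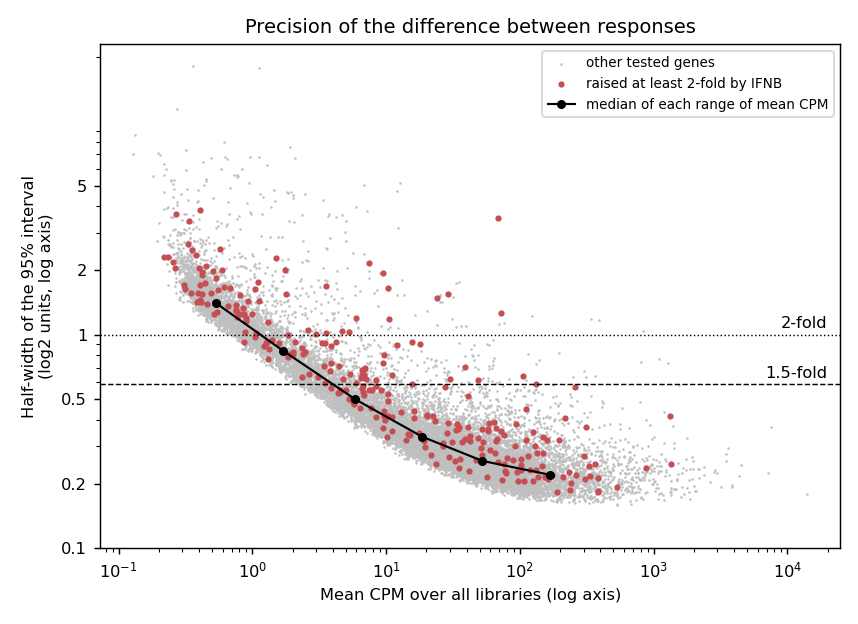
Mean CPM over all libraries (x axis, log) against the margin of error of the difference, drawn as the half-width of its 95% interval in log2 units (y axis, log), with genes raised at least 2-fold in red and the median of each range in black. The black line falls from 1.41 under 1 CPM to 0.22 over 100 CPM.

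Genes were also ordered by the size of the IFNB response in an additive fit, in which both lines share 1 response. IFNB raised 268 genes at least 2-fold (1.63% of those tested) and lowered 1 (0.0061%), which had a group at 0 and no estimate of the difference. Of the 268, 105 (39.2%) were called equal within 1.5-fold, against 59.1% of all tested genes, and 174 (64.9%) within 2-fold, against 76.2%. Genes with a log2 response between 0.5 and 1 were equal within 1.5-fold in 130 of 207 cases (62.8%), close to the 61.5% of 15363 genes within 0.5 of no response. The share fell to 57 of 139 genes (41.0%) at a response of 1 to 2, 35 of 81 (43.2%) at 2 to 4, 11 of 30 (36.7%) at 4 to 6 and 2 of 18 (11.1%) above 6.

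The margins widened in the same order. The median margin of error was 0.35 for the genes within 0.5 of no response, 0.36 at a response of 0.5 to 1, 0.54 at 1 to 2, 0.55 at 2 to 4, 0.63 at 4 to 6 and 3.04-fold (1.604) above 6. The median differences were -0.05, -0.04, -0.11, -0.02 and -0.06 for the 5 ranges from 0.5 upward. The margins above are for single genes and do not bound a median over many genes. In mean log2 CPM per library, the difference at a response of 0.5 to 1 was -0.063, with a margin of error of 0.054. It was -0.01 (margin 0.16) at 1 to 2, -0.06 (0.19) at 2 to 4, -0.08 (0.32) at 4 to 6 and -0.07 (0.34) above 6. Over all tested genes it was -0.04 (0.06). These library means were taken after adding about 2 counts, which pulls responses at low counts toward 0, and they include genes with a group at 0. Their differences and margins at the largest responses therefore depend partly on that addition. Between 0.5 and 1 below no response there were 20 genes, with a median difference of 0.06, a margin of 0.68 and 5 genes called equal. Of the 18 genes with a response above 6, 4 had a group at 0 and no estimate.

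The count in the lowest group, usually an untreated one, separated the raised genes. Of 31 raised genes whose lowest group averaged under 3 counts, 0 were equal within 1.5-fold and 0 within 2-fold, at a median margin of 2.29. From 3 to 10 counts 1 of 44 was equal within 2-fold, and from 10 to 30 counts 19 of 37. The first calls within 1.5-fold came at 30 to 100 counts, with 7 of 38 genes, and all 38 were equal within 2-fold. At 100 to 300 counts 31 of 42 were equal within 1.5-fold (73.8%), and over 300 counts 67 of 76 (88.2%), where the median margin was 0.26 and all 76 were equal within 2-fold. No raised gene whose lowest group averaged under 30 counts was called equal within 1.5-fold.

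**Figure D3:**
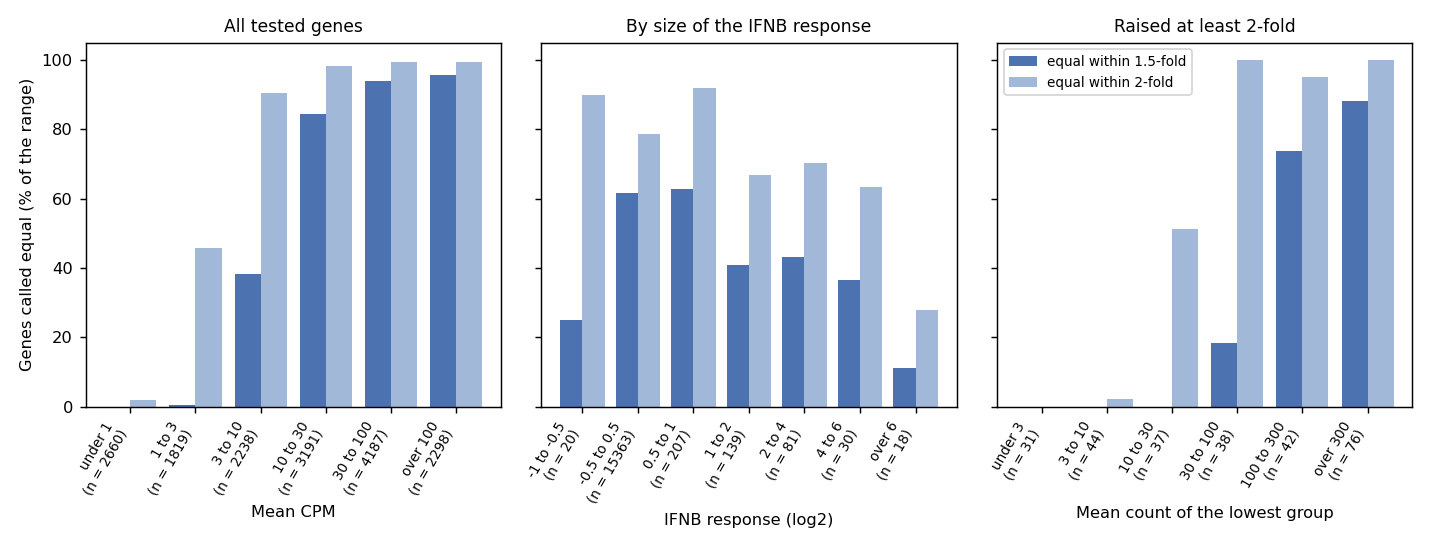
Share of genes called equal within 1.5-fold (dark bars) and within 2-fold (light bars), in percent of each range (y axis from 0): by mean CPM for all tested genes, by IFNB response size, and by mean count of the lowest group for genes raised at least 2-fold. Shares rise with both measures of depth, from 0% to 95.6% and from 0% to 88.2% within 1.5-fold, and are lowest for responses above 6.

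Estimates for raised genes lay slightly below 0. Of the 268, 156 were smaller and 107 larger in LTR8B cells, with a median difference of -0.05, so that the LTR8B fold was typically 96.3% of the GFP fold. Without GFP IFNB replicate 1 the median was -0.0091, with 135 smaller and 128 larger. Leaving out LTR8B IFNB replicate 4 gave -0.015, leaving out GFP untreated replicate 1 gave -0.03, and leaving out LTR8B IFNB replicate 3 gave -0.09. Among the 45 raised genes over 100 CPM, where margins were tightest (median 0.24), 36 were smaller and the median was -0.10; the median stayed negative in each of 22 alternative settings (-0.12 to -0.05, the latter with LTR8B replicates 1 and 2 only). For comparison, 2223 genes over 100 CPM within 0.5 of no response had a median of 0.02, with 932 smaller and 1291 larger. Without GFP IFNB replicate 2 these genes had a median of 0.00043 (1104 smaller, 1119 larger), without LTR8B untreated replicate 3 one of 0.007, and without GFP IFNB replicate 1 one of 0.06. All 45 raised genes were equal within 2-fold and 36 (80%) within 1.5-fold, and none was called different. Of the 2223 comparison genes 2212 (99.5%) were equal within 2-fold and 2134 (96.0%) within 1.5-fold.

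The summed picture of the 129 genes raised at least 4-fold was close in both lines. Their mean log2 CPM, again with about 2 counts added, was 1.01 and 1.10 in untreated GFP libraries and 4.72 and 4.68 with IFNB. In LTR8B cells it was 1.05, 0.99, 1.065 and 0.95 untreated and 4.63, 4.61, 4.70 and 4.45 with IFNB. The groups overlapped in both treatments, and LTR8B IFNB replicate 4 was the lowest treated library. The mean response was 3.65 in GFP and 3.58 in LTR8B cells, a difference of -0.06 with a standard error of 0.10 and a margin of error of 0.22. By the same measure the difference over all tested genes was -0.04, with a margin of error of 0.06.

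The signalling genes had the smallest median margin of error of the interferon lists (0.24). Of 8 receptor and JAK-STAT genes 7 were equal within 1.5-fold (87.5%). The share was 59.1% of all tested genes and 95.6% of those over 100 CPM, where the list's median of 105 CPM lies. All 8 were equal within 2-fold, with 4 smaller and 4 larger. Their median difference of -0.001 had the other sign in 12 of 22 settings. STAT2, a transcription factor of ISGF3 (chr12:56341597-56360155, minus strand), stood at 46.2 and 52.7 CPM in untreated GFP cells and 249.995 and 241 CPM with IFNB. In LTR8B cells it stood at 48.2, 44.8, 52.0 and 52.6 CPM untreated and 231, 255, 250.2 and 222 CPM with IFNB. The groups overlapped in both treatments. Its difference was -0.04 (95% interval -0.28 to 0.21), so the LTR8B fold was 97.5% of the GFP fold (82.4% to 115%), equal within 1.5-fold by edgeR's equivalence test at an adjusted p of 6.7e-04.

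IRF9, the DNA-binding part of ISGF3, was the exception in the list at -0.31 (-0.70 to 0.08): it was raised from 4.06 ± 0.82 (SD, n = 2) to 120 ± 7.20 CPM in GFP cells and from 4.58 ± 0.65 (SD, n = 4) to 109 ± 8.43 CPM in LTR8B cells, and its groups overlapped in both treatments. IRF9's edgeR equivalence adjusted p was 0.115 at 1.5-fold and 0.0013 at 2-fold. JAK1, TYK2 and STAT3, which IFNB moved by less than 0.5 in either line, had differences of 0.05, 0.05 and 0.03 and were each equal within 1.5-fold.

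Among 15 tested regulators and nuclear body genes 12 were equal within 1.5-fold (80%) and 14 within 2-fold. Within 1.5-fold the share was 59.1% of all tested genes and 94.0% of those from 30 to 100 CPM. The list's median was 60.1 CPM. IRF1 and IRF2, transcription factors of the interferon response, differed by 0.04 and 0.04, and PML, which organises nuclear bodies, by -0.06. BATF2, a bZIP factor raised by 5.07 in GFP and 5.11 in LTR8B cells, was equal within 1.5-fold (edgeR equivalence adjusted p = 0.036). That call for BATF2 was lost in 11 of 22 settings, among them the fit with a term for each replicate number (adjusted p = 0.064).

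Within the SP140 family, limits ran from tight to unresolved. SP100 (chr2:230415942-230544090, plus strand) differed by 0.05 (-0.13 to 0.23), one of the 3 smallest outer bounds among raised genes, and SP140L by 0.09 (-0.16 to 0.33); both were equal within 1.5-fold. SP140 itself had responses of 0.03 in GFP and -0.09 in LTR8B cells and a difference of -0.12 (-0.84 to 0.60), with a lowest group that averaged 21.8 counts. SP140 was equal within 1.5-fold only with the replicate term (edgeR equivalence adjusted p = 0.034, against 0.138 without it).

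SP110, a nuclear body protein, had the smallest unadjusted p of the genes raised at least 2-fold. It stood at 27.4 and 24.8 CPM in untreated GFP cells and 205 and 199 CPM with IFNB. Its LTR8B values were 16.1, 16.2, 16.3 and 19.5 CPM untreated and 172, 177, 183 and 161 CPM with IFNB. SP110 was lower in every LTR8B library than in either GFP library of the same treatment. The response was 7.73-fold in GFP and 10.2-fold in LTR8B cells, a difference of 0.40 (95% interval 0.15 to 0.65, unadjusted p = 0.0033), or 132% of the GFP fold (111% to 156%). SP110 was not called different by edgeR (adjusted p = 0.996) in the fit or in any of the 22 settings, where its difference ran from 0.33 to 0.49. It was not equal within 1.5-fold (edgeR equivalence adjusted p = 0.10) and was equal within 2-fold (adjusted p = 8.5e-05). SP110 (chr2:230167293-230225729, minus strand) overlaps SP140 on the opposite strand, and no source used here states whether reads were counted by strand, so reads of the pair cannot be told apart with certainty.

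Of 9 tested feedback genes 5 were equal within 1.5-fold (55.6%, near the 59.1% of all tested genes) and 8 within 2-fold. The list's median was 42.2 CPM, and from 30 to 100 CPM 94.0% of tested genes were equal within 1.5-fold. The protease USP18, which removes ISG15 from proteins and limits receptor signalling, responded by 6.23 in GFP and 6.21 in LTR8B cells. Its difference of -0.02 (-0.63 to 0.59) nevertheless missed the 1.5-fold limit (edgeR equivalence adjusted p = 0.056, and 0.021 with the replicate term). ISG15, the ubiquitin-like modifier, stood at 8.38 and 7.86 CPM in untreated GFP cells, 297 and 249 CPM with IFNB, 7.18, 8.28, 6.36 and 7.65 CPM in untreated LTR8B cells and 271, 270.4, 284 and 178 CPM with IFNB. Its groups overlapped in both treatments, with LTR8B IFNB replicate 4 the lowest treated library, and its difference was 0.03 (-0.56 to 0.62). ISG15 also missed the 1.5-fold limit (edgeR equivalence adjusted p = 0.053), and passed it with the replicate term (0.023) and without LTR8B IFNB replicate 4 (0.012, difference 0.16). SOCS1, which inhibits JAK kinases, differed by -0.04 with an interval from -0.95 to 0.88. At a mean of 1.57 CPM it was equal only within 2-fold. With the replicate term 7 of the 9 genes were equal within 1.5-fold.

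Among 12 tested nucleic acid sensors 10 were equal within 1.5-fold (83.3%). The share was 59.1% of all tested genes and 94.0% of those from 30 to 100 CPM, where the list's median of 51.4 CPM lies. The RNA sensors RIGI and IFIH1 differed by -0.16 (-0.40 to 0.08) and -0.02 (-0.34 to 0.30). The members not called equal were DHX58, an RNA sensor cofactor, at 0.45 (-0.43 to 1.34), and ZBP1, a sensor of Z-form nucleic acids, at 1.93 (-0.08 to 3.94). ZBP1's lowest group averaged 0.75 counts, and its unadjusted p was 0.048.

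The antiviral effectors were the largest list: all 60 tested were raised, 54 of them at least 2-fold. Of the 60, 35 were equal within 1.5-fold (58.3%, against 59.1% of all tested genes), 49 within 2-fold (81.7%, against 76.2% of all tested genes), and 40 were smaller in LTR8B cells. The list's median was 77.0 CPM. From 30 to 100 CPM 94.0% of tested genes were equal within 1.5-fold and 99.4% within 2-fold, so both shares of the effectors were lower. The effectors' median difference of -0.10 was negative in all 22 settings (-0.13 to -0.03). It was -0.03 without GFP IFNB replicate 1 and -0.06 without GFP untreated replicate 1, LTR8B untreated replicate 3 or LTR8B IFNB replicate 4. Of the 38 effectors whose lowest group averaged at least 100 counts, 33 were equal within 1.5-fold; of the 13 under 30 counts, 0 were. With the replicate term 42 of the 60 were equal within 1.5-fold.

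Promoters of 3 effectors with tight limits are printed to show the interferon-stimulated response element, the site that ISGF3 binds. It was searched as GAAANNGAA on the sense strand or TTCNNTTTC, its reverse complement, in the 250 bases before each gene's start (RefSeq, GRCh38.p14). The 3 sequences shown are those of the genes with a match that had the smallest outer bounds among genes raised at least 4-fold, and SP110 is shown as the raised gene with the smallest p. Capitals mark the match, and each sequence runs 5′ to 3′ on the gene's own strand. PLSCR1, a phospholipid scramblase, lies on the minus strand (chr3:146544596-146544845), as does PARP9, an ADP-ribosyltransferase (chr3:122564301-122564550); PARP14 lies on the plus strand (chr3:122680589-122680838) and SP110 on the minus strand (chr2:230219985-230220234).
PLSCR1: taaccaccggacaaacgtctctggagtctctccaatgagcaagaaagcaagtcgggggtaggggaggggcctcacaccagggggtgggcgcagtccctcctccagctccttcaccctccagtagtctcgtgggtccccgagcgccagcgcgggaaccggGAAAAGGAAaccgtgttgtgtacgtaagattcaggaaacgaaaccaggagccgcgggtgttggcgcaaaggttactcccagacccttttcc
PARP9: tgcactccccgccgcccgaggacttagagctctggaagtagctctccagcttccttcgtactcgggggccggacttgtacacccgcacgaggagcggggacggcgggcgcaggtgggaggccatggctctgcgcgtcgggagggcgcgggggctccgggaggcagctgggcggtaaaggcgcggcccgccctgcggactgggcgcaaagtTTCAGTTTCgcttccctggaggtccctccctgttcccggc
PARP14: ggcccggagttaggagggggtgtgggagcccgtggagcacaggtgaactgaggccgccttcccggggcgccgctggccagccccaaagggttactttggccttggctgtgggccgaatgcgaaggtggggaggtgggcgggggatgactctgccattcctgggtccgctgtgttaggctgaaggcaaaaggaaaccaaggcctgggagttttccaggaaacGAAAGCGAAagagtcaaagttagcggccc
SP110: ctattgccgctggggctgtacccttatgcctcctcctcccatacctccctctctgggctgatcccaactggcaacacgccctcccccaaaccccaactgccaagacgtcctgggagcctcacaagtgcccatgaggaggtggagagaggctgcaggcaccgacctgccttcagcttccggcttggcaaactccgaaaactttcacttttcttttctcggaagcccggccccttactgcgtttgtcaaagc
The last base of the match lay 83 bases before the start in PLSCR1, 32 in PARP9 and 21 in PARP14. The SP110 window holds no such letters, which says only that they are not in this window.

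The responses of PLSCR1, PARP9 and PARP14 differed by 0.02 (-0.20 to 0.24), -0.10 (-0.32 to 0.12) and -0.11 (-0.32 to 0.11), each equal within 1.5-fold. Among all 27305 RefSeq promoters, 7.0% held the element, and over the 11415 tested genes with a promoter 5.51% did. The share rose with response size, from 4.91% within 0.5 of no response to 16.9% at 1 to 2, 33.9% at 2 to 4, 47.8% at 4 to 6 and 7 of 9 genes (77.8%) above 6. Among raised genes with a promoter, 28 of the 83 called equal within 1.5-fold held it (33.7%), and 24 of the 94 not called equal (25.5%).

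IFIT2 and IFIT3, whose proteins act on viral RNA, combined a very large response with a tight limit. IFIT2 (chr10:89283694-89309276, plus strand) stood at 8.46 and 10.5 CPM in untreated GFP cells and 3045 and 2749 CPM with IFNB. The LTR8B values of IFIT2 were 9.99, 9.31, 9.40 and 8.94 CPM untreated and 2506, 2556, 2583 and 2553 CPM with IFNB. The untreated groups overlapped, and the 4 treated LTR8B libraries lay below both treated GFP libraries. IFIT2 rose 307-fold in GFP and 271-fold in LTR8B cells, a difference of -0.18 (-0.43 to 0.06), equal within 1.5-fold (edgeR equivalence adjusted p = 0.0046). Without GFP untreated replicate 2 that call was lost (adjusted p = 0.067). IFIT3 was equal at -0.10 (-0.33 to 0.14) and IFIT5 at -0.21 (-0.42 to 0.002).

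IFIT1 (8.37 in GFP, 8.13 in LTR8B cells) differed by -0.24 (-0.66 to 0.18) and missed the 1.5-fold limit (edgeR equivalence adjusted p = 0.078, and 0.018 with the replicate term). EIF2AK2, the RNA-activated kinase PKR, and SAMD9L, a translation inhibitor, were the effectors whose 95% intervals left out 0. EIF2AK2 differed by -0.34 (-0.61 to -0.07, unadjusted p = 0.015) and SAMD9L by -0.34 (-0.62 to -0.07, unadjusted p = 0.018). Neither was called different by edgeR after adjustment nor equal within 1.5-fold, although both were equal with the replicate term (edgeR equivalence adjusted p = 0.021 and 0.044). The antiviral ubiquitin ligase TRIM22 had a wide interval for its depth, at -0.26 (-0.90 to 0.39). It was equal with the replicate term (0.004).

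Several of the largest fold changes had loose limits. RSAD2, the antiviral enzyme viperin, had 0 and 1 counts in untreated GFP libraries and 3404 and 2820 with IFNB. In LTR8B cells it had 0, 0, 3 and 0 counts untreated and 2575, 2719, 1634 and 2487 with IFNB. Counts in treated cells were high in every library, and in CPM the treated LTR8B libraries (127 to 133) lay below both treated GFP libraries (140.1 and 162), yet the untreated counts left a difference of -0.87 with an interval from -4.40 to 2.66, or 4.74% to 632% of the GFP fold. MX2, an interferon-induced GTPase, had 16 and 8 counts in untreated GFP libraries and 10, 6, 14 and 8 in untreated LTR8B libraries, and differed by -0.34 (-1.602 to 0.92). With IFNB it stood at 185 and 188 CPM in GFP cells and at 148, 112, 138 and 93.9 CPM in LTR8B cells, so the treated groups did not overlap while the untreated groups did. XAF1 (-1.27, -2.83 to 0.28), IFI44L (0.71, -1.24 to 2.66) and OASL (0.25, -1.23 to 1.74) also had wide intervals, while OAS2, which makes the activator of RNase L, had a narrower one at -0.33 (-0.73 to 0.08). The treated LTR8B libraries also lay below the treated GFP libraries for XAF1 (highest LTR8B value 66.2 CPM, lowest GFP value 66.3 CPM). The same held for OASL (51.7 and 53.5 CPM). Both genes overlapped in untreated cells, while IFI44L, IFIT1 and OAS2 overlapped in both treatments. How many of all tested genes separate between 2 GFP and 4 LTR8B libraries was not counted. Separation is therefore only described, here and for the other named genes.

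**Figure D4:**
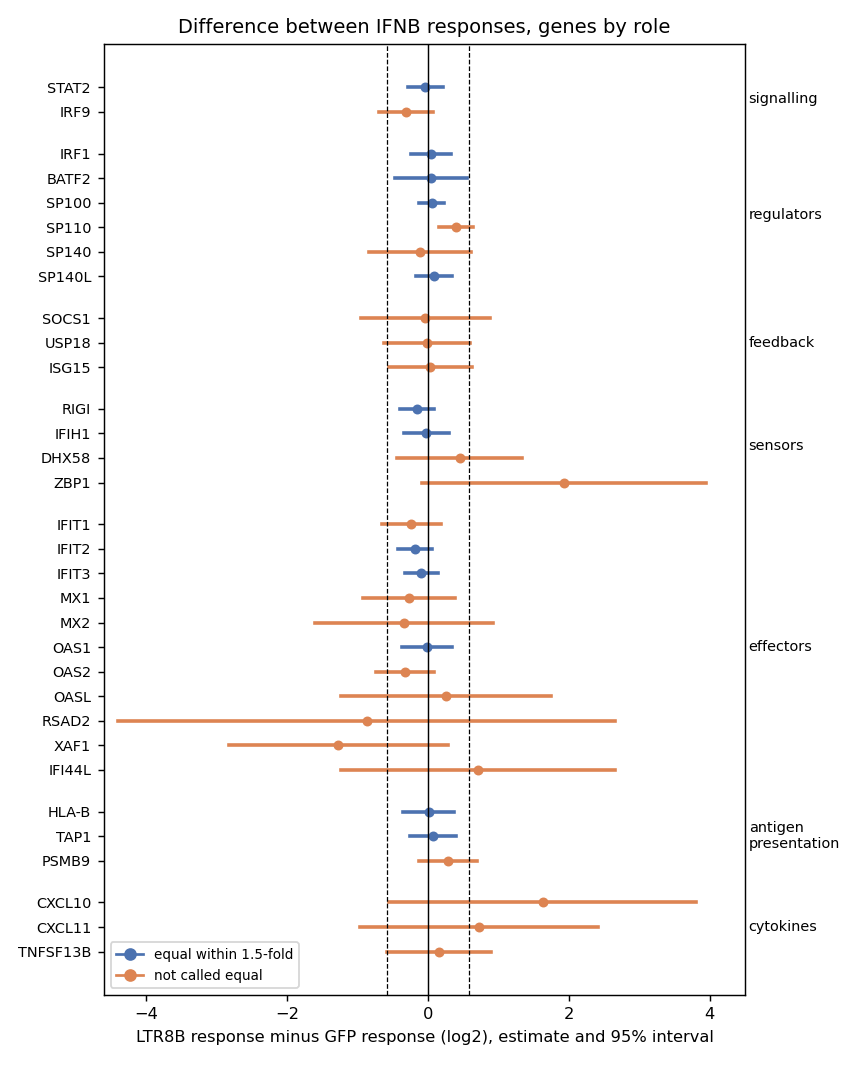
Difference of the responses (LTR8B minus GFP, log2, x axis) with its 95% interval for genes of the 7 interferon lists, ordered by role; dashed lines mark 1.5-fold, and genes called equal within it are blue. SP110 at 0.40 has an interval that leaves out 0, and RSAD2 (-4.40 to 2.66) and CXCL10 (-0.55 to 3.80) have the widest intervals drawn.

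Antigen presentation genes responded less and were bounded more tightly. All 17 were raised, 7 of them at least 2-fold, and 15 were equal within 1.5-fold (88.2%). The share was 59.1% of all tested genes and 94.0% of those from 30 to 100 CPM, where the list's median of 65.4 CPM lies. TAP1, a subunit of the peptide transporter, responded by 2.78 in GFP and 2.85 in LTR8B cells and differed by 0.07 (-0.26 to 0.40). HLA-B, a class I heavy chain, differed by 0.01 (-0.35 to 0.37) and B2M, the class I light chain, by 0.01 (-0.23 to 0.26). The members not called equal were PSMB9, an immunoproteasome subunit, at 0.28 (-0.13 to 0.70; equal with the replicate term, edgeR equivalence adjusted p = 0.025), and HLA-F at -1.070 (-2.51 to 0.37), whose lowest group averaged 2.0 counts.

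Chemokines and cytokines were the least resolved interferon list. Only IL15RA, the interleukin 15 receptor chain, of the 10 tested was equal within 1.5-fold (10%), at 0.03 (-0.32 to 0.37), and 6 were within 2-fold. Within 1.5-fold the share was 59.1% of all tested genes and 38.4% of those from 3 to 10 CPM. The list's median was 4.0 CPM. CXCL10, a T cell attractant, had 3 and 2 counts in untreated GFP libraries and 1, 0, 2 and 0 in untreated LTR8B libraries. With IFNB it had 322 and 297 counts in GFP and 255, 386, 193 and 227 in LTR8B libraries. Its difference was 1.63 (-0.55 to 3.80), an interval that holds both equality and a response 13.9-fold larger in LTR8B cells. CXCL11 differed by 0.72 (-0.97 to 2.41). With the replicate term 3 of the 10 were equal within 1.5-fold.

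Lists outside the interferon programme were described in the same way. All 30 housekeeping genes were equal within 1.5-fold, with differences from -0.19 to 0.26 and a median of 0.11, and 25 were larger in LTR8B cells. All 10 tested heat shock chaperones (median 0.07) and 24 of 25 cell cycle genes (median 0.09) were equal as well. These lists had median levels of 426, 233 and 117 CPM, and 95.6% of all tested genes over 100 CPM were equal within 1.5-fold. The 2223 genes over 100 CPM within 0.5 of no response had a median difference of 0.02. The housekeeping and cell cycle medians were positive in all 22 settings (0.06 to 0.17 and 0.01 to 0.19), and both were lowest without GFP IFNB replicate 2 and highest without GFP IFNB replicate 1. The heat shock median ran from -0.0029 to 0.17 between those same settings and was also below 0 (-0.0022) without GFP untreated replicate 1. Of 14 tested immediate early genes 10 were equal within 1.5-fold (71.4%, against 59.1% of all tested genes). The list's median was 50.1 CPM, and the share from 30 to 100 CPM was 94.0% of tested genes. The stress-responsive factor ATF3 differed by 0.04 (-0.58 to 0.65). Of 22 genes that an earlier account of these data reported as differing between the guides, 8 had equal responses within 1.5-fold (36.4%, against 59.1% of all tested genes). Their median was 10.3 CPM, and the share from 10 to 30 CPM was 84.3% of tested genes. Within 2-fold 16 of the 22 were equal, with 11 smaller and 11 larger, and the replicate term made 13 equal within 1.5-fold. Of the 22, C19orf33 at 1.10 (0.10 to 2.11, edgeR unadjusted p = 0.030) and SP110 had 95% intervals that left out 0.

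The 10 genes with a symbol and the smallest p for the difference were mostly not interferon genes. Their unadjusted p-values in edgeR started at 0.00105 and their means ran from 3.45 to 146 CPM. Of the 10, 9 had a smaller LTR8B response, and 7 had a positive estimate in GFP and a negative one in LTR8B cells. Over all tested genes 8288 were smaller and 8052 larger, and opposite signs were not counted. The 10 were picked by this same difference, which favours large differences and opposite signs, so these counts are only described. KMT2D, a histone H3 lysine 4 methyltransferase (chr12:49018975-49059774, minus strand), stood at 138 and 133 CPM in untreated GFP cells and 143 and 146 CPM with IFNB. The corresponding LTR8B values were 159, 169, 156 and 159.6 CPM untreated and 135.5, 138, 139 and 134 CPM with IFNB. The lines did not overlap in either treatment, LTR8B being higher untreated and lower with IFNB. The difference was -0.33 (-0.50 to -0.15), and KMT2D was still equal within 1.5-fold (edgeR equivalence adjusted p = 0.0079), a call kept in all 22 settings. It was 1 of 88 genes with an unadjusted p under 0.05 that were also equal within 1.5-fold.

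ZBTB20, a zinc finger repressor, stood at 24.2 and 27.8 CPM in untreated GFP cells and 32.6 and 39.8 CPM with IFNB. In LTR8B cells it stood at 32.7, 29.3, 32.4 and 25.7 CPM untreated and 26.6, 23.2, 30.5 and 26.5 CPM with IFNB. The untreated groups overlapped and the treated groups did not. Its difference of -0.66 (-1.02 to -0.30) passed adjustment only without the low-count filter (edgeR adjusted p = 0.033), 1 of 13 genes called there. NBPF19 differed by -0.39 (-0.61 to -0.17), RGS17, a regulator of G protein signalling, by -0.70 (-1.12 to -0.28), KDM7A, a histone demethylase, by -0.59 (-0.95 to -0.22) and FOXP2, a transcription factor, by -0.90 (-1.46 to -0.35). The remaining 3 were LSP1P4 (-0.80), MIR3648-1 (-1.29) and HHLA1 (-1.04). LSP1P4, MIR3648-1 and NBPF19 have near-identical copies or relatives elsewhere in the genome, so their counts are uncertain.

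**Figure D5:**
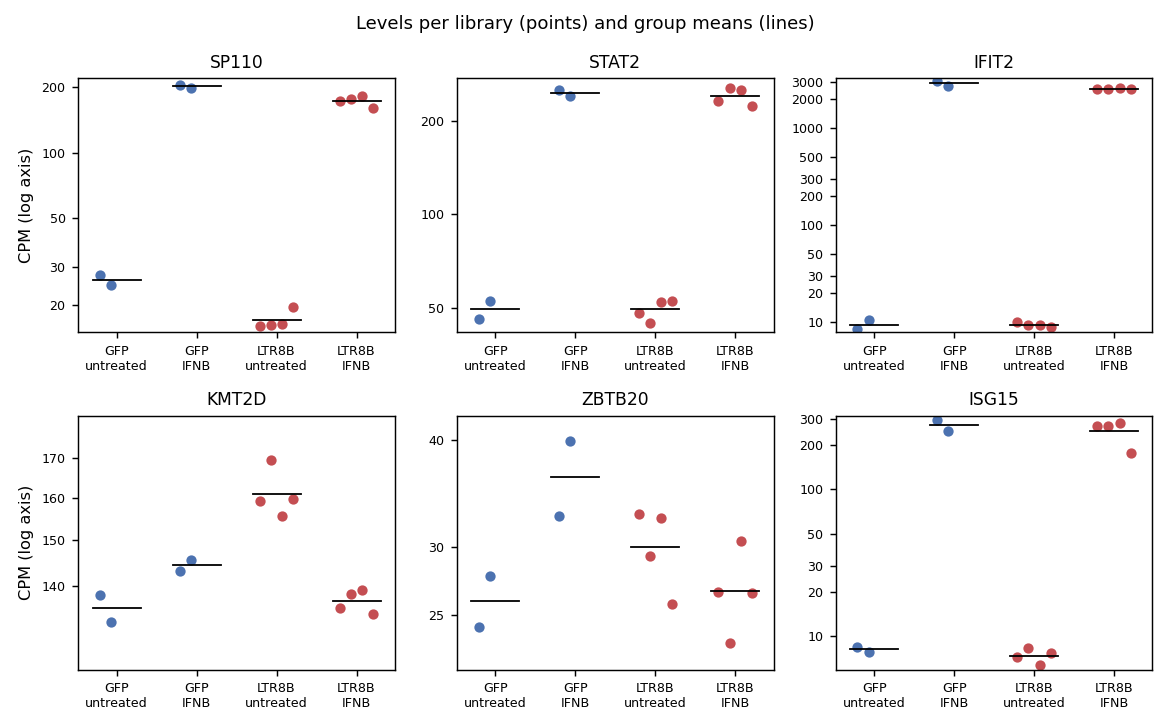
CPM per library (points, log axis) and group means (lines) for SP110, STAT2, IFIT2, KMT2D, ZBTB20 and ISG15 in the 4 groups. Treated LTR8B libraries lie below treated GFP libraries for SP110, IFIT2, KMT2D and ZBTB20, the groups of STAT2 overlap, and 1 treated LTR8B library of ISG15 lies at 178 CPM below the others.

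At the extremes of the bound, CMTR1, an mRNA cap methyltransferase, had the tightest limit of the raised genes: its difference was -0.01 (-0.22 to 0.20), so the responses were at most 1.16-fold apart at the far end of the interval. ZNFX1, an RNA helicase-like protein, and SP100 followed at 1.17-fold and 1.18-fold. At the other end, USP41, PLSCR2 and GRIP2 had far ends of 31.3-fold, 31.2-fold and 30.6-fold, with lowest groups that averaged 1.0, 0.25 and 0.25 counts. Of the 5 genes named for the largest decreases, GPATCH11 was equal within 1.5-fold at 0.13 (-0.13 to 0.39), while CXCL8, HSD17B2, JMJD7-PLA2G4B and LONRF2 were not called equal.

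Lists of responses called in each line alone differed in length. A response at an adjusted p under 0.05 was called by edgeR for 524 genes in GFP cells and 737 in LTR8B cells, 463 of them in both. Of 274 genes called in LTR8B cells only, 0 were called for the difference and 202 (73.7%) were equal within 1.5-fold. Of 61 called in GFP cells only, 0 were called for the difference, 19 were equal within 1.5-fold and 45 within 2-fold. Both lists were cut from the same values as the difference, and the LTR8B line had 4 libraries per treatment against 2.

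A term for each replicate number narrowed the limits. With it, the median margin of error was 0.30 in place of 0.36, 10450 genes were equal within 1.5-fold (9687 of them among the 9695), and 3478 (21.2%) were equal within 25% in place of 0. The 25% calls came from abundant genes: 0 under 10 CPM, 229 from 10 to 30 CPM (7.18%), 1748 from 30 to 100 CPM (41.7%) and 1501 over 100 CPM (65.3%). Of 272 genes raised at least 2-fold in that fit, 125 were equal within 1.5-fold and 31 within 25%. Equal genes within 1.5-fold went from 11 to 32 at 1 to 3 CPM, from 5 of 20 to 9 of 28 at responses of -1 to -0.5 and from 2 of 18 to 4 of 22 above 6, the ranges holding other numbers of genes in that fit. At an unadjusted p under 0.05 there were 1027 genes (6.26%) in place of 489 (2.98%). It called 4 genes for the difference, H3P6, MIR3648-2, ENSG00000279872 and ENSG00000280096, each with a group at 0 counts and no estimate.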

How the data were processed

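RNA-seq of polyA RNA from 12 HT1080 libraries was used, in 4 groups taken from the labels. The authors deposited a table of raw counts for 60669 genes; the submitters' processing notes name Salmon 0.13.1, DESeq2 1.38.3 and build hg38, and no source used here gives the order or settings of those steps. The labels' protocols name 2 kinds of index adapter without saying which library had which. A normalized table was not used.

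Counts were fitted in edgeR 4.0.16 (R 4.3.3) with TMM scaling, filterByExpr (minimum count 10, total 15; 16393 genes kept) and robust quasi-likelihood, over all 12 libraries with 1 mean per group. Equality was tested by 2 one-sided tests on the unshrunk difference and its standard error, within 25%, 1.5-fold and 2-fold, with Benjamini-Hochberg adjustment over all tested genes at 0.05. The 95% intervals use up to 16.7 degrees of freedom. Genes with a group at 0 counts in every library (53) got no estimate. limma 3.58.1 and DESeq2 1.42.0 were alternatives. Scripts were tested on simulated data.

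Named genes were the 10 smallest p, the SP140 family, the 10 largest increases and 5 largest decreases at a mean of at least 1 CPM, up to 3 members per list by response size, and the 3 tightest and 3 widest limits; members of the lists are also given by role. The members and lists were chosen with earlier results of these data known. C19orf33, EIF2AK2, SAMD9L and TRIM22 were singled out after their values were seen. 1 gene chosen by the rule is not reported here.

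Same-numbered untreated and treated libraries deviated together (correlations 0.31 in GFP, where the 2 pairs mirror each other, and 0.42, 0.59, 0.13 and 0.44 in LTR8B, where differently numbered pairs ran from -0.47 to 0.19 and untreated replicate 3 was closer to IFNB replicate 4, at 0.19, than to 3), so a fit with a term per guide and replicate number was run as an alternative. Replicates of a group differed by more than sampling noise (chi-square per degree of freedom 2.74 to 17.4).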

Additional observations from a re-analysis of the deposited data

Results flagged for a closer look

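Dixon's test at the 95% level was run in groups of 4 libraries, on named genes and on mean levels of gene sets. In 15 of 144 tests 1 library stood apart from the other 3, each time for a single gene. Chance alone marks about 1 in 20, or 7.2 of 144. In the treated LTR8B group, replicate 4 was lowest for ISG15 (178 CPM, others 270.4 to 284), ZNFX1 (487 CPM, others 519 to 525) and CMTR1 (92.5 CPM, others 99.7 to 101), and highest for CXCL8 (6.88 CPM, others 4.31 to 4.59), NBPF19 (36.3 CPM, others 33.7 to 34.0) and REEP5 (115 CPM, others 103.5 to 104.1). Replicate 3 of that group was highest for DHX58 (8.53 CPM), and replicate 1 lowest for CCNE1 (8.87 CPM). In the untreated LTR8B group, replicate 4 was highest for SP110 (19.5 CPM, others 16.1 to 16.3); without it the SP110 difference was 0.47 and still not called by edgeR (adjusted p = 0.980). Replicate 1 of that group was lowest for HHLA1 (3.22 CPM) and replicate 3 lowest for PSMB2 (158 CPM). A single count or a few counts against 0 in the other 3 untreated LTR8B libraries marked GBP1P1, GRIP2 and PLSCR2 (0.0514 CPM in replicate 2) and RSAD2 (0.10 CPM in replicate 3).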

How the results depend on the processing

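Equality within 25% held for 0 tested genes and 0 responsive genes, and within 2-fold for 174 of the responsive genes; among genes raised at least 4-fold, 48 were equal within 1.5-fold. DESeq2, with its own standard errors and with equality tested on the normal distribution in place of a t distribution, gave 631 genes equal within 25%. Calls for the difference numbered 13 without a low-count filter, 4 with the replicate block and 0 to 1 when each library was left out, the 1 being NPIPA9 without GFP untreated replicate 1 (176 counts there, 18 in replicate 2). The block also moved the count within 25% to 3478 and that at an unadjusted p under 0.05 to 1027. Without a filter the margin under 1 CPM could not be given, since most such genes have a group at 0. In that setting the median differences at responses of -1 to -0.5 and 0.5 to 1 were -0.0626 and -0.0302. With a mean of at least 1 CPM required, the margin under 1 CPM was 0.93. That filter removes genes under 1 CPM, so 0.93 covers only genes at its edge and does not describe those of the main fit. Leaving out each library gave -0.0123 to 0.161 and -0.0787 to -0.0382 for those response ranges, 7283 (without GFP IFNB replicate 1) to 9840 genes equal within 1.5-fold, 80 to 115 responsive genes equal, and a median of -0.12 to -0.02 for genes raised at least 4-fold. The medians at responses of 4 to 6 (-0.11 to 0.06) and above 6 (-0.12 to 0.01) changed sign among these. The causes were not tested.

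Among named genes, 24 results were weaker, 42 stronger and no call reversed over the 22 settings; estimates of the difference, none of them called, changed sign for 28 of 62 genes, such as IFI44L (-0.76 to 1.69), OASL (-0.90 to 0.79), RSAD2 (-1.27 to 0.30) and SP140 (-0.34 to 0.10). Of the genes called equal, BATF2, HSPA1A, EGR1 and IFIT2 lost a 1.5-fold call in at least 1. The setting without LTR8B replicate 3 was chosen after seeing the data. With 2 GFP libraries per treatment, the GFP arm supplied most of the variance of the difference for the median gene, and genes with few untreated counts cannot be bounded tightly at this depth.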
